A study of Xenopus tropicalis with 24 samples.

Results

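Tails of *Xenopus tropicalis* tadpoles at stage 61, the climax of metamorphosis, were compared between animals lacking both thyroid hormone receptors (TRDKO61) and wild-type animals (WT61) at 0 hours post-amputation (hpa), with the tissue taken at the time of the cut. The comparison took the 2 TRDKO61 and the 2 WT61 libraries of this time point, 4 of the 24 libraries of the series. TRDKO animals carry mutations in both copies of *thra* and of *thrb* (TRα-/- TRβ-/-), inherited through the germ line and so not limited to one tissue. Their parents were homozygous for the *thra* knockout, so the wild-type tadpoles were not their siblings. Genotype and family background therefore cannot be told apart in these comparisons. The other groups used here were TRDKO56 and WT56 tails at premetamorphic stage 56 and 0 hpa, and TRDKO61 and WT61 tails at 6 and 24 hpa, with 2 libraries each. The RNA came from whole tissue taken at the cut, so it mixed epidermis, connective tissue, muscle, notochord, spinal cord and blood. The methods do not say how tadpoles were divided between the 2 libraries of a group, so p-values measure the spread between libraries, which may be technical. The counts totalled 18738708 and 11122288 in the TRDKO61 libraries, and 10795536 and 16645297 in the WT61 libraries.

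Thyroid hormone (TH) drives frog metamorphosis through its nuclear receptors, TRα and TRβ. These bind DNA as heterodimers with retinoid X receptors, recruit corepressors when no hormone is bound and coactivators once it is. TH levels are low in the premetamorphic tadpole and peak at climax, when the larval tail is resorbed: its muscle, notochord, nerve cord and skin are broken down by proteases that attack the extracellular matrix (ECM) and by cell death.

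TRDKO61 and WT61 tails differed in a broad set of genes, in both directions. Differentially expressed genes (DEGs) were those with an absolute log2 fold change (log2 FC, TRDKO61 over WT61) over 1 and a false discovery rate (FDR) under 0.05 in edgeR's quasi-likelihood test. Of 15925 genes tested, 865 were higher in TRDKO61 (5.43%) and 997 were lower (6.26%), and these shares are the background for the counts below. The median log2 FC over all genes tested was 0.00. Without the limit on the fold change 4768 genes passed the FDR, and tested against that limit itself 503 did. Every DEG had libraries that did not overlap between the groups, but the call itself favours this, so it adds no separate support. The replicates of a group varied by 13.1% beyond counting error (biological coefficient of variation), and their counts differed by far more than sampling noise, with a mean chi-square per gene of 24.1 in TRDKO61 and 14.2 in WT61. Levels are given as CPM, read pairs of a gene scaled to the size of its library, with replicate 1 before replicate 2.

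**Figure D1:**
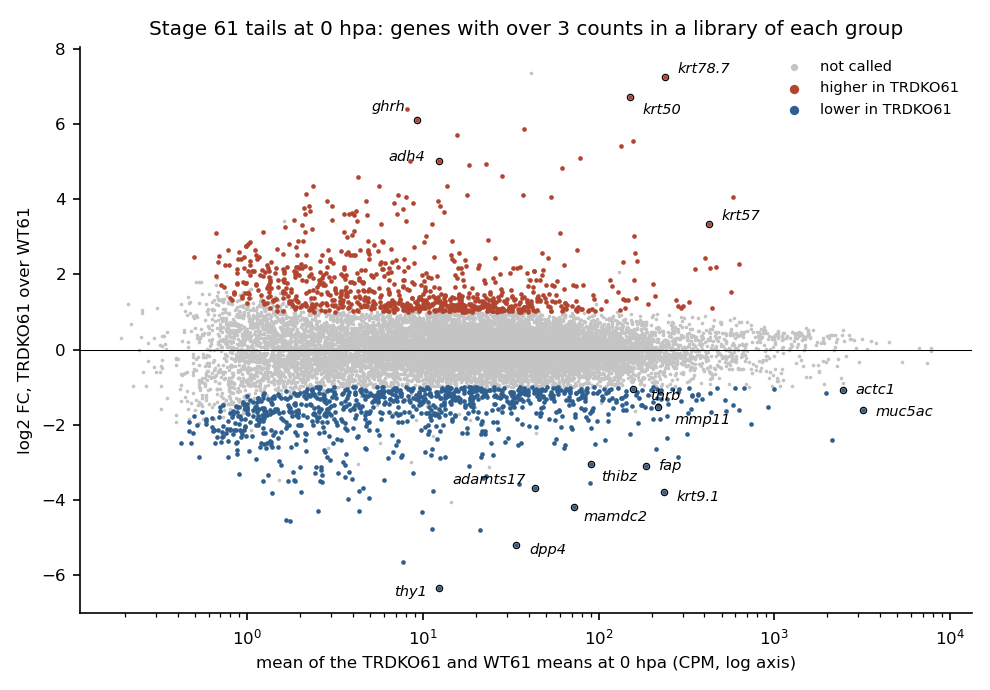
Each point is a gene at its mean level (x, CPM, log axis) and its log2 FC, TRDKO61 over WT61 (y), for 15728 genes; 197 genes with at most 3 counts in each library of a group are not drawn. Red and blue points passed the test as higher and lower in TRDKO61, grey points did not; *krt78.7* (log2 FC 7.25) and *krt50* (6.72) are the highest circled points, and *thy1* (-6.34) and *dpp4* (-5.21) the lowest.

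Transcripts of both receptor genes were still counted in the knockout. *thrb* (chromosome 6, 46687270 to 46933187, assembly UCB_Xtro_10.0), the receptor gene that TH itself induces, had 92.9 and 111.7 CPM in TRDKO61 against 216.5 and 209.5 CPM in WT61. It was lower with a log2 FC of -1.06 (SE 0.17, FDR 0.000824), and -0.95 without replicate 1 of TRDKO61. *thra* (chromosome 10, 9063035 to 9190651) had 9.29 and 10.5 CPM in TRDKO61 and 13.8 and 13.1 CPM in WT61, a log2 FC of -0.45 that did not pass the test (FDR 0.0923). Scaled per kilobase of transcript, *thrb* exceeded *thra* in both groups, with 8.28 against 1.44 FPKM in TRDKO61 and 17.2 against 1.96 FPKM in WT61. The counts cannot show whether a working protein was made, so they do not check the mutations. Of 20 receptor and cofactor genes, *thrb* was the only DEG. The corepressor gene *ncor1* (log2 FC -0.76, FDR 0.00145) and *rxrg* (0.76, FDR 0.00563), a heterodimer partner, had differences under the fold limit.

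Of the 3 deiodinase genes, whose enzymes set the local hormone level, *dio3* and *dio2* were both lower and *dio3* was the only DEG. The remaining 1 had a positive log2 FC without a call. *dio3* (chromosome 8, 97238054 to 97239535), whose deiodinase inactivates TH, had 53.2 and 44.3 CPM in TRDKO61 against 126.3 and 97.7 CPM in WT61 (log2 FC -1.20, SE 0.17, FDR 0.000389). *dio2* (chromosome 8, 83429342 to 83446599), whose product makes the active hormone T3, had 65.4 and 40.2 CPM in TRDKO61 against 109.3 and 97.9 CPM in WT61. Its log2 FC of -0.97 stayed just inside the fold limit (FDR 0.0129). *slco1c1*, a transporter of TH, was higher but scarce, with 2.79 and 2.35 CPM in TRDKO61 and 0.287 and 0.463 CPM in WT61 (log2 FC 2.69, FDR 0.00224). *slc7a8* and *slc16a10*, which also carry TH, had log2 FC of -0.86 and -0.54 and were not called.

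Genes known to respond to TH in frogs changed in part. In the list of 38 such genes, 11 were lower, 2 were higher and 25 did not pass, and the median was -0.52. The deepest fall among the transcription factors was in *thibz* (chromosome 3, 140193605 to 140202878), a leucine zipper gene known as a direct TH target, with 12.3 and 27.1 CPM in TRDKO61 against 182.3 and 138.4 CPM in WT61 (log2 FC -3.06, SE 0.33, FDR 0.00045). Its TRDKO61 libraries differed by more than those of most genes, yet both were far below either WT61 library. *sox4* (log2 FC -1.55), *fosl2* (-1.56), *mafb* (-1.18) and *dnmt3a* (-1.30), a DNA methyltransferase, also fell. *klf9* (chromosome 1, 129846141 to 129854184), another direct TH target, had 22.8 and 24.6 CPM in TRDKO61 against 48.8 and 34.3 CPM in WT61, and its log2 FC of -0.81 (FDR 0.00904) stayed inside the fold limit. The 5 signal genes of the list, such as *shh* (-0.01) and *bmp4* (0.19), held no DEG. The risers were *ucp3* (log2 FC 1.85), a mitochondrial carrier, and *mmp9.1* (1.34), a gelatinase. The neighbouring gelatinase gene *mmp9.2* was lower, with 11.4 and 13 CPM in TRDKO61 against 24.3 and 32.1 CPM in WT61. Its log2 FC was -1.22 (FDR 0.00079), and it missed the FDR in a fit to all 24 libraries (0.0522). *mmp9.1* fell short of the limits without either TRDKO61 library (FDR 0.0524 and 0.064) and without replicate 2 of WT61 (log2 FC 0.88).

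Proteases that cut the ECM or act at the cell surface showed some of the largest falls. *mmp11* (chromosome 1, 153178402 to 153189730), stromelysin 3, had 74.5 and 149.0 CPM in TRDKO61 against 319.1 and 329.4 CPM in WT61 (log2 FC -1.54, SE 0.29, FDR 0.00492). *mmp19* fell to 8.88 and 7.42 CPM in TRDKO61, against 36.5 and 37.4 CPM in WT61 (log2 FC -2.17, FDR 2.03e-05). The collagenase *mmp1* had 207.6 and 130.3 CPM in TRDKO61 and 477.3 and 533.1 CPM in WT61 (log2 FC -1.58, FDR 0.000389). Membrane-type *mmp16* was lower by a log2 FC of -1.33, and *mmp14*, its more abundant relative, had a log2 FC of -0.98 just inside the limit (FDR 0.00252). *mmp2*, a gelatinase, did not differ beyond its spread (log2 FC 0.06, FDR 0.872). In all, 6 of 22 matrix metalloproteinases and inhibitors were lower and 4 were higher, with a median of -0.76. The 4 risers were *mmp7* (log2 FC 1.09), *mmp8* (2.62), *mmp9.1* (1.34) and *mmp25* (1.44), while *mmp9.2* was among the fallers (-1.22). Without replicate 1 or 2 of TRDKO61 only 1 of the list was called higher, and without replicate 2 of WT61 0 were. A fit to all 24 libraries called 2 higher. Among the fallers, *mmp13l* had 1.01 and 7.96 CPM in TRDKO61 against 35.4 and 47 CPM in WT61 (log2 FC -3.36, FDR 0.023). It was not called without either WT61 library (FDR 0.0515 and 0.077), and its log2 FC was -5.34 to -2.40 with 1 library left out.

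A pair of neighbouring genes on chromosome 9 fell together. *fap* (71953628 to 72000797), a membrane serine protease of activated fibroblasts, had 32.1 and 46 CPM in TRDKO61 against 342.3 and 319.8 CPM in WT61 (log2 FC -3.09, SE 0.18, FDR 1.32e-06). *dpp4* (72042477 to 72102914), its closest relative, had 0.964 and 2.99 CPM in TRDKO61 against 74.8 and 57.2 CPM in WT61 (log2 FC -5.21, SE 0.35, FDR 1.16e-05). For both genes, no library of one group came near the other. Among the secreted ADAMTS proteases *adamts17* (chromosome 3, 115341304 to 115483047) stood out, with 7.26 and 4.98 CPM in TRDKO61 and 82.9 and 78.9 CPM in WT61 (log2 FC -3.69, SE 0.20, FDR 1.08e-06). *adamts4* (-1.67) and *adamts6* (-1.39) were lower too, while *adamts8* had 61.3 and 59.8 CPM in TRDKO61 against 16.9 and 20.2 CPM in WT61 (log2 FC 1.70, FDR 2.89e-05). Of the 35 genes in this list 7 were lower and 2 higher, with a median of -0.48. Of 64 lysosomal genes 13 had a positive log2 FC, with a median of -0.32, against 7992 of 15925 and 0.00 over all genes. Their calls were closer to the background, with 3 lower and 2 higher. The lower ones were the glycan-degrading hydrolases *gusb* (log2 FC -1.84), *hyal2* (-1.90) and *arsb* (-1.43), and the higher ones were the cathepsins *ctsh* (1.85) and *ctsl* (1.25, and 0.98 without replicate 2 of WT61).

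**Figure D2:**
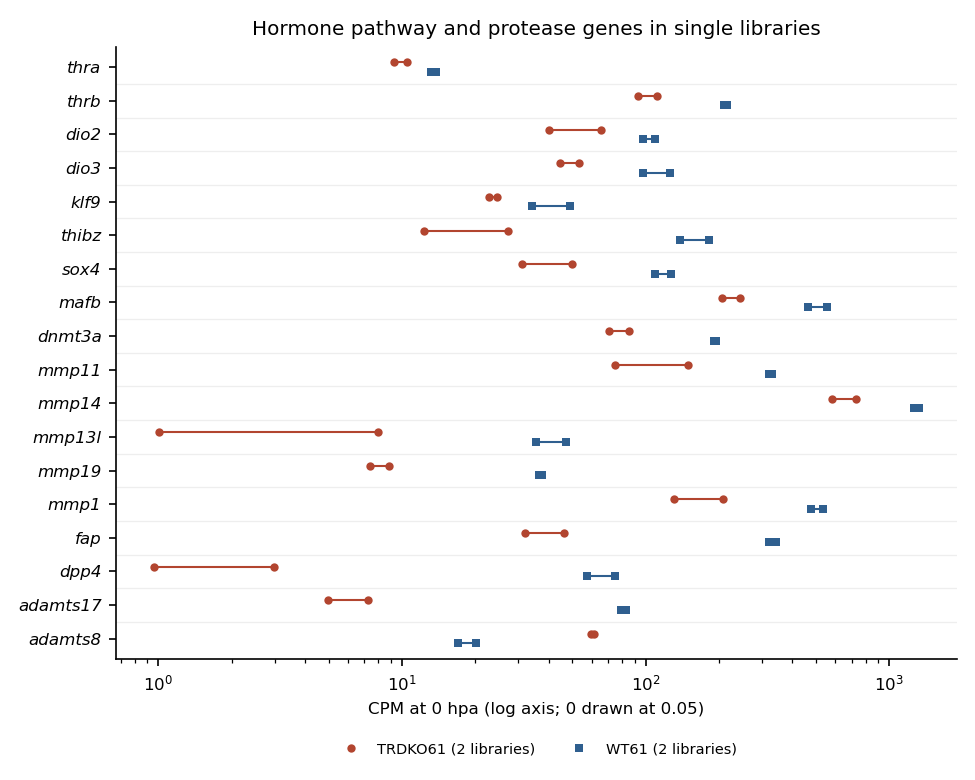
Levels (x, CPM, log axis) of hormone pathway and protease genes in the 2 TRDKO61 libraries (red circles) and the 2 WT61 libraries (blue squares), 1 row per gene, with a line joining the libraries of a group. Every gene drawn except *adamts8* lay lower in both TRDKO61 libraries, including *thra*, *klf9*, *dio2* and *mmp14*, which did not pass both limits.

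The remaining genes with the largest falls were a mixed group of surface, matrix and metabolic genes. They were taken as the 12 DEGs of lowest log2 FC whose higher group averaged 10 CPM or more. *LOC116410303* (chromosome 4, 19793653 to 19801307) had 0 counts in both TRDKO61 libraries against 13.5 and 12.4 CPM in WT61, which makes it at least 61.2-fold lower (floor of 3 counts per library). *thy1* (chromosome 7, 80057512 to 80066957), a surface glycoprotein of neurons, fibroblasts and lymphoid cells, had 0.304 and 0.271 CPM in TRDKO61 against 27.6 and 21.5 CPM in WT61 (log2 FC -6.34, SE 0.30, FDR 3.78e-07). *lgals2*, a galectin, had 0.355 and 0.181 CPM in TRDKO61 against 16.6 and 13.6 CPM in WT61 (log2 FC -5.65, FDR 1.96e-06). These 3 genes were close to absent from the knockout tail at 0 hpa. At 6 hpa *lgals2* averaged 2.29 CPM in TRDKO61 against 6.56 CPM in WT61. *LOC116410303* averaged 1.57 against 11.9 CPM there, and *thy1* 0.288 against 13.1 CPM. *mamdc2*, which codes for a secreted matrix protein, had 5.53 and 9.95 CPM in TRDKO61 and 152.4 and 119.7 CPM in WT61 (log2 FC -4.18, FDR 5.66e-06). *il34* (chromosome 4, 75095134 to 75137926), a ligand of the macrophage receptor CSF1R, had 5.43 and 5.25 CPM in TRDKO61 and 62.1 and 67.1 CPM in WT61 (log2 FC -3.59, SE 0.20, FDR 1.08e-06). *pck1*, the rate-limiting enzyme of gluconeogenesis, fell by a log2 FC of -3.76 (FDR 0.00021). The unnamed loci *LOC105948087* (-4.78) and *LOC100144966* (-4.32) completed the 12, with *dpp4*, *adamts17* and a pair of keratins.

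The 12 largest rises, chosen in the same way, were led by keratins, described next, and by loci without a name. *LOC100489901* (chromosome 10, 38926189 to 38933710) had 358.7 and 251.8 CPM in TRDKO61 against 2.87 and 9.38 CPM in WT61 (log2 FC 5.55, FDR 0.000629). *LOC116408062*, close by (38913677 to 38919124), had 282.9 and 243.9 CPM in TRDKO61 against 4.31 and 7.59 CPM in WT61 (log2 FC 5.42, FDR 9.68e-06). *LOC100487636* (log2 FC 5.86), *LOC116408235* (5.70), *LOC100487426* (5.10) and *LOC108648292* (6.40) were higher as well. *LOC100493950* had 2 counts over both WT61 libraries and 15.9 and 13.8 CPM in TRDKO61, a ratio of 210.4 with a 95% counting interval of 57.9 to 1743. *ghrh* (chromosome 10, 39497965 to 39502506), which codes for growth hormone-releasing hormone, had 17.4 and 19.3 CPM in TRDKO61 against 0.287 and 0.232 CPM in WT61 (log2 FC 6.12, SE 0.31, FDR 6.54e-07). *adh4*, an alcohol dehydrogenase, had 22 and 25.5 CPM in TRDKO61 and 0.574 and 0.811 CPM in WT61 (log2 FC 5.03, FDR 0.000716).

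Keratins, the intermediate filament proteins of epithelia, changed in both directions while their sum stayed level. Of 33 keratin genes tested, 13 were higher in TRDKO61 and 6 were lower, and the median was 0.67. Their summed level was close in the groups, with 13726 and 13292 CPM in TRDKO61 against 14260 and 14212 CPM in WT61. The 13 risers made up 25.3% and 22.8% of that sum in the TRDKO61 libraries and 2.97% and 2.58% in the WT61 libraries. For the 6 fallers the shares were 8.33% and 7.7% in TRDKO61, against 23.3% and 24% in WT61.

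Some risers were nearly absent from the wild type. *krt78.7* (chromosome 2, 147906363 to 147913681) had 360.3 and 587.4 CPM in TRDKO61 against 2.97 and 3.18 CPM in WT61 (log2 FC 7.25, SE 0.72, FDR 0.00286). *krt50* (chromosome 10, 8253914 to 8257730) had 227.2 and 368.0 CPM in TRDKO61 against 3.73 and 2.14 CPM in WT61 (log2 FC 6.72, SE 0.56, FDR 0.000391). *krt53* had 4 counts over both WT61 libraries and 17.4 and 50 CPM in TRDKO61, a ratio of 201.7 with a 95% counting interval of 78.5 to 741.7. Others rose on top of a sizeable wild-type level. *krt57* had 867.3 and 681.5 CPM in TRDKO61 against 95.3 and 57.4 CPM in WT61 (log2 FC 3.34, FDR 0.00833), and missed the FDR without replicate 1 of TRDKO61 (log2 FC 3.14, FDR 0.0667). *krt78.6* (log2 FC 3.03), *krt55* (2.58) and *krt78.2* (2.33) rose as well and were called with any 1 library left out.

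The fallers were led by *krt12.3* and *krt9.1*. *krt9.1* (chromosome 10, 7639379 to 7645569) had 46.3 and 15.7 CPM in TRDKO61 against 560.3 and 320.2 CPM in WT61 (log2 FC -3.80, SE 0.56, FDR 0.0051). *krt12.3* had 1.83 and 0.905 CPM in TRDKO61 and 29.8 and 51.6 CPM in WT61 (log2 FC -4.80, FDR 0.00299), and its FDR was 0.054 without replicate 1 of TRDKO61. The more abundant *krt19* (562.6 and 384.6 CPM in TRDKO61, 1314.9 and 1396.3 CPM in WT61) and *krt8.1* (324.2 and 298.1 CPM in TRDKO61, 904.9 and 984.9 CPM in WT61), keratins of simple epithelia in other vertebrates, fell by a log2 FC of -1.52 and -1.60. The 2 keratins with the highest levels in WT61, *krt12.5* (log2 FC 0.21, FDR 0.608) and *krt7* (-0.77, FDR 0.0377), were not called. Keratin genes are close copies of one another, and how the counting split reads between them is not stated, so values of single members are less certain than those of other genes.

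The keratins called lay in dense clusters on chromosomes 10 and 2. On chromosome 10, 18 keratins were tested, 8 higher and 5 lower, and they stand 0.773 to 1.49 Mb from *thra*, the mutated receptor gene. On chromosome 2, away from either receptor gene, 12 were tested, 5 higher and 1 lower. Within 5 Mb of *thra*, keratins included, 29 of 165 other genes were DEGs (17.6%), against 11.7% of all genes tested. With the keratins left out 16 of 147 were (10.9%), and within 5 Mb of *thrb* 5 of 85 were (5.88%). In TRDKO56 tails, which carry the same alleles, none of the 33 keratins was called higher and 1 was lower. A direct test of the difference in log2 FC between the stages called 1 of the 33, with a median difference of 0.36. So for most keratins the stages were not shown to differ. *krt78.7* had 0.992 and 6.79 CPM in TRDKO56 against 0 and 0 CPM in WT56, without a call (FDR 0.198). Whether sequence differences around the mutated locus take part in the keratin calls was not tested.

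**Figure D3:**
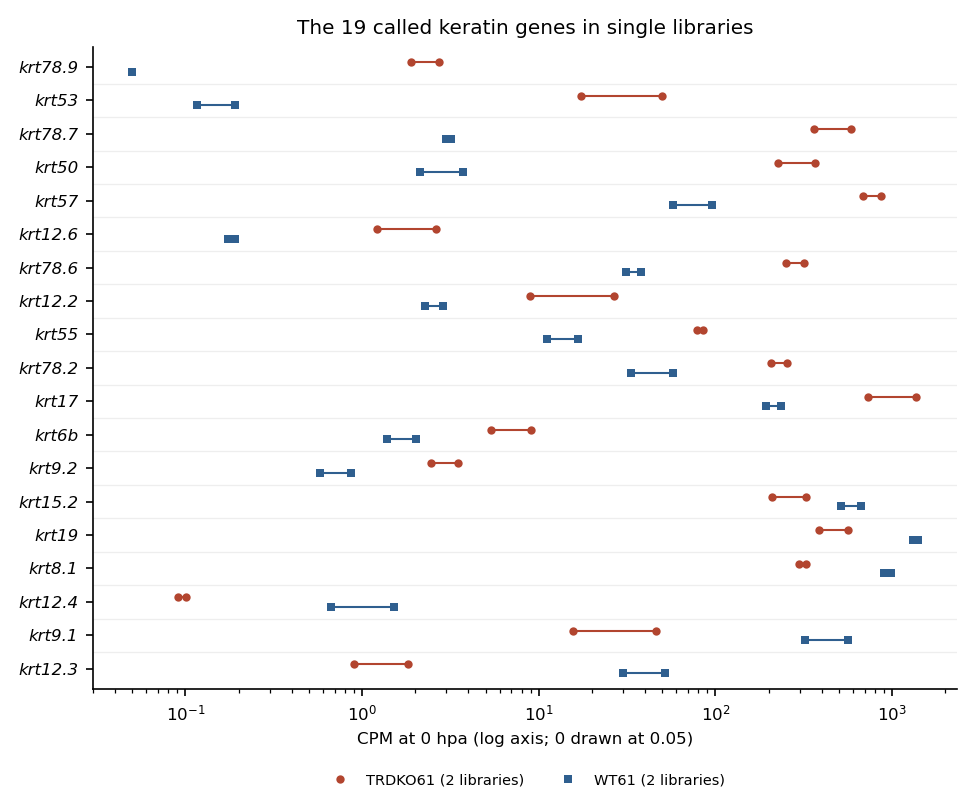
Levels (x, CPM, log axis, 0 drawn at 0.05) of the 19 keratin genes called at 0 hpa in the 2 TRDKO61 libraries (red circles) and the 2 WT61 libraries (blue squares), ordered by log2 FC. The 13 upper rows are higher in TRDKO61 and the 6 lower rows are lower, with no overlap between groups in any row.

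Outside the keratins the epidermis list stayed near the background, with 5 of 65 genes lower and 1 higher (median -0.30, or -0.27 with genes absent from a group set at their bound). Without replicate 1 of TRDKO61 8 were lower, and without replicate 2 of TRDKO61 3 were higher. None of its 20 adhesion genes and none of its 15 regulators was called. Of the 5 fallers 3 were among the 9 goblet and secretory cell genes. The gel-forming mucin *muc5ac* had 1512 and 1626 CPM in TRDKO61 against 4927 and 4668 CPM in WT61 (log2 FC -1.61, SE 0.35, FDR 0.00565). It lost the call in a fit to all 24 libraries (FDR 0.0821). The intelectins *itln1* (3.2 and 2.08 CPM in TRDKO61, 21.9 and 17.1 CPM in WT61) and *itln2* (2.84 and 5.34 CPM in TRDKO61, 18.1 and 16.7 CPM in WT61), lectins of mucous cells, fell by a log2 FC of -2.82 and -2.16. The carbonic anhydrase gene *ca12* (-3.41) and *elovl4* (-1.44), an enzyme of barrier lipids, fell too. *sult2b1*, a sulfotransferase of the skin barrier, was the riser (log2 FC 1.73).

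The basement membrane, the sheet under epithelia and around muscle, was lower as a group. Of its 27 genes 12 were lower and none was higher, 2 had a positive log2 FC, and the median was -0.87. *lama1* (chromosome 6, 105767197 to 105865625), a laminin chain, had 28.1 and 21.4 CPM in TRDKO61 against 65.3 and 77.8 CPM in WT61 (log2 FC -1.53, SE 0.15, FDR 4.95e-05). *col4a5* (-1.41) and *col4a6* (-1.25), chains of collagen IV, the laminin chain *lamb2* (-1.31), and the linkers *npnt* (-1.61) and *nid2* (-1.19) fell too. Of the Fraser complex, which anchors epidermis to dermis, 3 of 5 genes fell, led by *frem2* with 29.4 and 25.2 CPM in TRDKO61 against 91.5 and 133.7 CPM in WT61 (log2 FC -2.05, FDR 1.72e-05). Leaving out single libraries gave 10 to 14 lower genes.

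The interstitial matrix changed in part. Of 60 dermal matrix genes 9 were lower and 4 higher, with a median of -0.42. *fn1*, fibronectin, had 303.0 and 311.4 CPM in TRDKO61 against 849.6 and 873.6 CPM in WT61 (log2 FC -1.49, FDR 7.52e-05). *bgn*, the small proteoglycan biglycan, had 91.2 and 98.2 CPM in TRDKO61 against 284.5 and 258.7 CPM in WT61 (log2 FC -1.52, SE 0.13, FDR 1.91e-05). *thbs2* (-1.47), *col14a1* (-1.37), *fbn1* (-1.31) and *col8a1* (-2.50) were also lower, and *col15a1* was higher (1.85). Without replicate 1 of WT61 2 genes of the list were called higher. The 9 fixed fibroblast markers, fibrillar collagens among them, held no DEG, with summed levels of 10239 and 11988 CPM in TRDKO61 and 12542 and 11876 CPM in WT61. Of 31 notochord and cartilage genes 4 were lower and 2 higher. *matn4* (-2.07), *hapln1* (-1.98) and *matn3* (-1.48), structural partners of cartilage matrix, fell, while *sox9* (1.25), a regulator of cartilage genes, and *comp* (2.80) rose.

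Skeletal muscle genes were lower in the receptor-less tail, mostly by a factor near the fold limit. Of 65 contractile genes 28 were lower and 2 higher, 5 had a positive log2 FC, and the median was -0.98 (-0.96 with genes absent from a group at their bound). The most abundant, *actc1* (chromosome 8, 111737194 to 111743485), a sarcomeric actin, had 1818 and 1353 CPM in TRDKO61 against 3550 and 3076 CPM in WT61 (log2 FC -1.07, SE 0.28, FDR 0.0136). It was not called without replicate 2 of TRDKO61 (log2 FC -0.87) or replicate 1 of WT61 (-0.96), nor in a fit to all 24 libraries (FDR 0.147), where 21 genes of the list were lower. *tpm2* (-1.31), *casq2* (-1.17), *ldb3* (-1.35) and *pygm* (-1.51), for a tropomyosin, a calcium store protein, a Z line protein and muscle glycogen phosphorylase, were lower whichever library was left out. Deeper falls were seen in *myh13*, a myosin heavy chain, with 4.47 and 2.99 CPM in TRDKO61 against 23.6 and 42 CPM in WT61 (log2 FC -3.11, FDR 0.000187), and in *xirp1* (-2.53), a Z line-associated gene. *tnnt2*, the troponin T of embryonic and cardiac muscle in other vertebrates, went the other way with 85.4 and 66.9 CPM in TRDKO61 against 21 and 17.5 CPM in WT61 (log2 FC 1.99, FDR 4.3e-05). *sln*, an inhibitor of the calcium pump, was higher too, with 40 and 47.8 CPM in TRDKO61 against 14 and 8.28 CPM in WT61. At stage 56, 7 of the 65 contractile genes were lower in TRDKO56 and 1 was higher, with a median of -0.49. Over all genes tested, 2.07% were lower and 0.973% higher there. The difference between the stages was called negative for 5 of the 65 and positive for 1, with a median of -0.29.

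Of the regulators of muscle identity *myod1* (log2 FC -2.09), *myf6* (-1.08, and -0.85 without replicate 1 of TRDKO61) and *mef2c* (-1.26) were lower, as was *fbxo32* (-1.39), a ubiquitin ligase of muscle wasting. The 12 genes matched to the fixed muscle markers summed to 10021 and 10265 CPM in TRDKO61 and to 17244 and 14468 CPM in WT61. In bulk tissue, fewer muscle cells and less muscle RNA per cell cannot be told apart. The same holds for every cell type below.

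Most neuronal genes were lower. Of 46 neural genes tested, 19 were lower and 4 higher, with a median of -0.90. Among the 24 neuronal genes alone 15 were lower, 1 was higher and the median was -1.78. *tubb3* (chromosome 4, 59701445 to 59709350), a neuronal tubulin, had 4.26 and 5.07 CPM in TRDKO61 against 18.8 and 19.1 CPM in WT61 (log2 FC -2.04, SE 0.18, FDR 1.91e-05). *syp*, a synaptic vesicle protein, had 0.913 and 2.62 CPM in TRDKO61 against 15.4 and 16.1 CPM in WT61 (log2 FC -3.29, FDR 5.98e-05). *syt1* (-2.74), *nefm* (-2.78) and *snap25* (-2.26) followed, and so did *mpz* (-1.53), the main myelin protein of peripheral nerve. Of the 12 progenitor genes *hes5.3*, *hes5.4* and *hes5.8*, Notch targets, were higher (1.07, 2.18 and 2.37) and *nes*, nestin, was lower (-1.07, and -0.74 without replicate 2 of WT61). *hes5.3* missed the FDR in a fit to all 24 libraries (0.0501). Without replicate 1 of WT61 it had a log2 FC of 0.94, and 2 genes of the list were called higher. The 11 genes matched to the neural markers summed to 137.7 and 159.1 CPM in TRDKO61 and to 236.6 and 238.3 CPM in WT61.

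In the leukocyte list 3 of 44 genes were higher and 2 lower, with a median of 0.00. The higher ones were *ncf1*, of the phagocyte oxidase (log2 FC 1.56), *cd3g*, of the T cell receptor complex (1.42), and *mmp25*. *cd3g* lost the call without replicate 2 of TRDKO61 (0.81) and without either WT61 library (FDR 0.113 and 0.241). Of these 3, 1 was called higher with DESeq2 and in a fit to all 24 libraries. The 10 leukocyte markers tested held 2 DEGs, *lcp1* (log2 FC -1.14) and *coro1a* (-1.07), both lower, and summed to 514.9 and 566.0 CPM in TRDKO61 and to 766.7 and 659.4 CPM in WT61. *coro1a* lost the call without replicate 1 of either group (-0.85 and -0.80). Endothelial markers summed to 86.1 and 104.1 CPM in TRDKO61 and to 134.5 and 158.6 CPM in WT61, with *cdh5* as the 1 DEG (-1.03, just inside the fold limit with upper-quartile scaling, -0.91 without replicate 1 of TRDKO61 and -0.88 without replicate 2 of WT61). The globins *hba1* and *hbg1* were higher, with 703.3 and 814.8 CPM for *hba1* in TRDKO61 against 250.4 and 83.8 CPM in WT61 (log2 FC 2.19, FDR 0.015). The WT61 libraries differed widely from each other, and both globins missed the FDR without either TRDKO61 library (0.105 and 0.121 for *hba1*, 0.116 and 0.135 for *hbg1*) and in a fit to all 24 libraries (0.0611 and 0.0804). The 6 red blood cell markers summed to 1449 and 1666 CPM in TRDKO61 and to 574.6 and 235.7 CPM in WT61. In the wider red blood cell list 2 of 30 genes tested were higher and 1 lower, *sptb* of the membrane skeleton (log2 FC -1.29, -0.97 without replicate 1 of TRDKO61), with a median of 0.03. Its 10 globins summed to 2918 and 3045 CPM in TRDKO61 and to 2887 and 1557 CPM in WT61, and its 7 membrane genes to 147.7 and 186.6 CPM in TRDKO61 and to 272 and 319.9 CPM in WT61. The 18 genes matched to epidermal markers summed to 7887 and 8727 CPM in TRDKO61 and to 10338 and 9592 CPM in WT61, with 2 higher and 5 lower of 17 tested. The 14 of notochord and cartilage summed to 441 and 387 CPM in TRDKO61 and to 587.2 and 768.2 CPM in WT61, with 2 higher and 3 lower. Of all the markers matched, *myh4* and *krt12.1* had 0 counts in the 4 libraries, and the other defining genes of tail muscle and skin were present in both groups. Whether unequal tissue composition takes part in the gene differences was not tested.

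**Figure D4:**
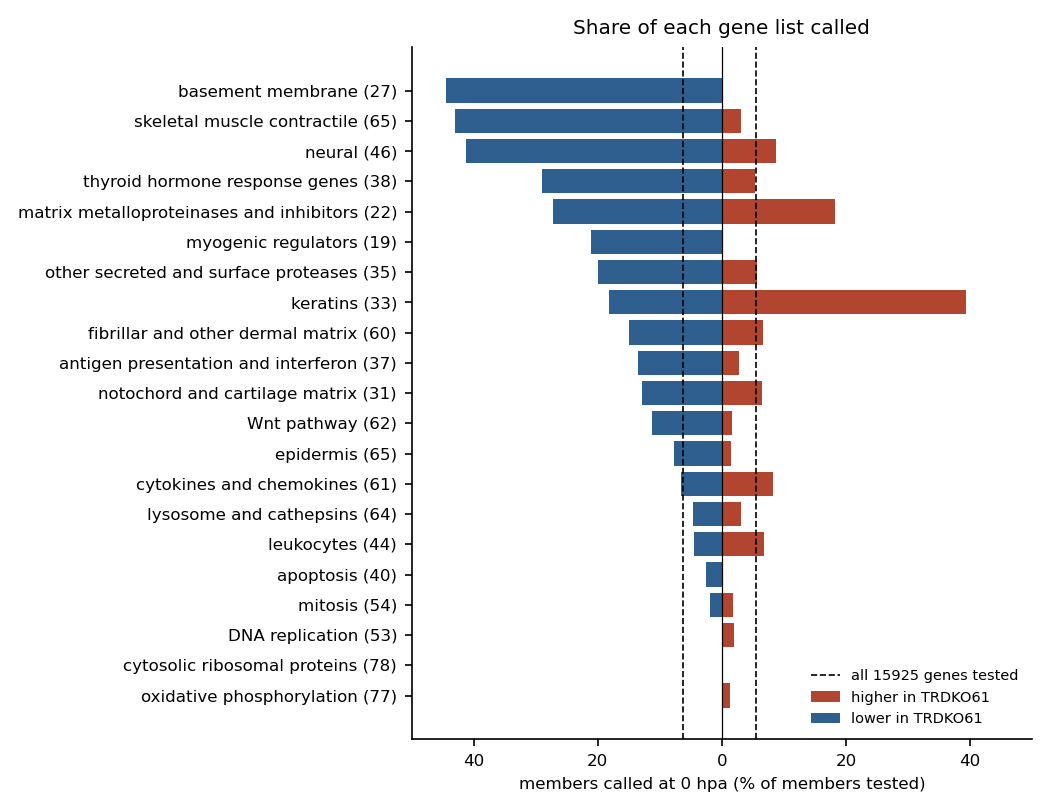
Share of the members tested in each gene list (number in brackets) that were called lower (blue, to the left) or higher (red, to the right) in TRDKO61. Dashed lines mark the shares over all 15925 genes, 6.26% lower and 5.43% higher; basement membrane, muscle and neural lists reach farthest left, and keratins farthest right.

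Few cell-cycle, death and housekeeping genes were called at this fold limit. Of 53 DNA replication genes tested 40 had a positive log2 FC, with a median of 0.24. Of 53 DNA replication genes 1 was higher (*dhfr*, 1.16) and none lower, and of 54 mitosis genes *racgap1.2* was lower (-2.13) and *anln* higher (1.19). *racgap1.2* lost the call without replicate 1 of WT61 (FDR 0.0666), and *anln* without 3 of the 4 libraries in turn (replicate 1 of TRDKO61, log2 FC 0.69, and replicates 1 and 2 of WT61, FDR 0.0592 and 0.0663) and in a fit to all 24 libraries (FDR 0.158). Of 40 apoptosis genes the pro-apoptotic *bcl2l11* (-1.03) was the 1 DEG, and it had a log2 FC of -0.88 and -0.90 without replicate 1 of TRDKO61 or of WT61. With upper-quartile scaling it fell just inside the fold limit. Without replicate 1 of TRDKO61 3 replication genes were called higher and 8 mitosis genes lower. Of 6 CDK inhibitors *cdkn2d* (-1.54) and *cdkn1a* (-1.16, and -0.90 without replicate 1 of WT61) were lower. None of the 6 had a positive log2 FC, and their median was -0.56. In the wider list, which adds p53 genes, 3 of 34 were lower and none higher. None of the 78 cytosolic ribosomal protein genes was called, yet all 78 had a positive log2 FC, with a median of 0.37. That median was 0.59 and 0.06 without replicates 1 and 2 of TRDKO61, and 0.62 and 0.12 without replicates 1 and 2 of WT61. Without replicate 1 of TRDKO61 or replicate 2 of WT61 1 of these genes was called higher.

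Among secreted signals and their receptors, 5 of 61 cytokine and chemokine genes were higher and 4 lower. Of these *lepr*, the leptin receptor, had 77.2 and 60.5 CPM in TRDKO61 against 16.6 and 15.9 CPM in WT61 (log2 FC 2.09, SE 0.18, FDR 1.75e-05). Its ligand *lep* was scarce, with 3.1 and 2.62 CPM in TRDKO61 and 6.98 and 5.04 CPM in WT61 (log2 FC -1.04, FDR 0.0241). *lep* was not called without replicate 2 of TRDKO61 (-0.94) or replicate 1 of WT61 (-0.80), with DESeq2 (FDR 0.0592) or in a fit to all 24 libraries (FDR 0.142). In the Wnt list 7 of 62 genes were lower and 1 higher (0 and 2 without replicates 1 and 2 of WT61), among the fallers the receptor *ror2* (-1.69) and the inhibitor *dkk1* (-1.24). In the BMP and TGF-beta list 3 of 52 genes were lower and 1 higher. The activin subunit gene *inhbb* (-2.07) and the receptor *acvr1b* (-1.10) were lower and *chrd.1*, a BMP antagonist, was higher (2.36). Of 14 retinoic acid genes 1 was lower, the receptor gene *rara* (-1.29), and 1 was higher. The riser was *rbp4*, a retinol carrier, with 7.76 and 9.32 CPM in TRDKO61 against 1.34 and 0.984 CPM in WT61 (log2 FC 2.90, FDR 4.22e-05). None of the 29 Hox genes tested was called, and 1 was lower without either TRDKO61 library.

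The same genotypes at stage 56, before the hormone peak, differed in fewer genes. TRDKO56 had 155 genes higher (0.973%) and 330 lower (2.07%) than WT56 among the 15925 tested. Of the genes higher at stage 61, 105 were called the same way at stage 56, 12.1% of the stage 61 set and 67.7% of the stage 56 set. Of the genes lower at stage 61, 133 were, 13.3% and 40.3% of those sets. At stage 56, 697 of the 865 risers and 785 of the 997 fallers kept their sign. The median of the stage 61 risers was 0.46 at stage 56, against 1.48 at stage 61, and that of the fallers was -0.48 against -1.54. Both sets were chosen for a large log2 FC at stage 61, which by itself favours smaller medians at stage 56. The stage 56 count was 194 to 360 with 1 library left out, against 485 with all. It was 269 without replicate 2 of TRDKO56, 233 without replicate 1 of WT56 and 194 without its replicate 2, whose total of 3956148 counts was the smallest.

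Several strong differences were already present before climax. *ghrh* averaged 13 CPM in TRDKO56 and 0.255 CPM in WT56, and *LOC108648292* 16.3 and 0.205 CPM. *thy1* averaged 1.36 CPM in TRDKO56 and 23.7 CPM in WT56, *lgals2* 0.251 and 12.9 CPM, and *LOC116410303* 0 and 20.2 CPM. All 5 were called at both stages, and *thy1* differed less at stage 56 (log2 FC -4.15, difference between stages -2.18, FDR 0.0272). Also called the same way at stage 56 were *LOC116408235* (log2 FC 4.28), *LOC100493950* (3.99), *LOC105948087* (-3.39) and *pck1* (-3.17). None of these had a difference between stages that passed. By contrast *mamdc2* (9.16 CPM in TRDKO56, 7.67 CPM in WT56), *il34* (4.24 and 5.87 CPM) and *krt9.1* (1.53 and 1.33 CPM) were low in both stage 56 groups and were not called there. The difference between stages passed for *mamdc2* (-4.37, FDR 0.000511) and *il34* (-3.29, FDR 0.000612), but not for *krt9.1* (-4.18, FDR 0.17).

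The difference between the stages was tested directly, as the log2 FC at stage 61 minus that at stage 56. It was called positive for 265 genes (1.66%) and negative for 362 (2.27%). Of the 865 stage 61 risers 151 were called positive, and of the 997 fallers 236 were called negative, with the stage 61 libraries entering both tests. For most stage 61 DEGs a difference between the stages was thus not shown. The total of 627 moved with single libraries, to 1083 without replicate 2 of TRDKO61, 397 without replicate 2 of WT61, 356 without replicate 2 of TRDKO56, and 162 and 300 without replicates 1 and 2 of WT56. Some TH response genes had opposite signs at the stages. *thrb* averaged 24.8 CPM in TRDKO56 against 10.7 CPM in WT56 (log2 FC 1.29, FDR 0.00497), the opposite of stage 61, and the stages differed by -2.35 (SE 0.27, FDR 0.00107). *dio3* averaged 157.8 CPM in TRDKO56 against 65.9 CPM in WT56 (log2 FC 1.27, FDR 0.00149), and the stages differed by -2.46 (SE 0.24, FDR 0.000511). These and *pappa2*, higher at stage 61 (1.19, and 0.53 to 1.56 with 1 library left out) and lower at stage 56 (-1.23), were the 3 genes called in opposite directions at the 2 stages. Like *thrb* and *dio3*, *mmp11* had a positive log2 FC at stage 56 (13.4 CPM in TRDKO56, 5.74 CPM in WT56) and a negative one at stage 61. It was not called at stage 56 (FDR 0.134), but its difference between stages of -2.74 was (FDR 0.0201). *thibz* was at 0.483 CPM in TRDKO56 and 0.557 CPM in WT56, and its difference between stages did not pass (FDR 0.298). *fosl2* was lower at both stages (log2 FC -1.63 at stage 56, FDR 0.00147), with a difference between them of 0.07 (FDR 0.923). For *sox4* (-2.11), *mafb* (-1.44) and *dnmt3a* (-2.04) the difference between stages was called, with an FDR of at most 0.00553.

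Many of the stage 61 differences were also seen in separate libraries made after amputation. At 6 hpa TRDKO61 had 544 genes higher (3.4%) and 499 lower (3.12%) than WT61, and at 24 hpa 392 higher (2.41%) and 454 lower (2.79%). Of the 0 hpa risers tested at 6 hpa, 799 of 834 kept a positive log2 FC and 344 were called, 41.2% of them and 63.2% of the genes called higher at 6 hpa. Of the fallers, 891 of 940 kept a negative log2 FC and 296 were called, 31.5% of them and 59.3% of the 6 hpa set. At 24 hpa 266 risers (31.4%, and 67.9% of the 24 hpa set) and 279 fallers (29.9% and 61.5%) were called the same way. Called at all 3 times were 158 risers and 153 fallers. The median of the risers tested there was 1.17 at 6 hpa and 0.94 at 24 hpa, and that of the fallers -1.17 and -0.81. These genes were chosen by their values at 0 hpa, which by itself favours smaller medians at the other times. The 6 hpa total of 1043 was 414, 602 and 627 without replicate 1 or 2 of TRDKO61 or replicate 1 of WT61, and the 24 hpa total of 846 was 409 and 553 without replicate 1 or 2 of WT61. The opposite call was made for 6 genes, *krt6b* and *LOC100492398* at 6 hpa and *acsl6*, *lrrc52*, *pnoc* and *LOC100491571* at 24 hpa, named after their values were seen.

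The values of single genes and lists at the later times were as follows. *thibz* had a log2 FC of -3.14 at 6 hpa and -4.47 at 24 hpa, *dpp4* -5.98 and -6.30, and *adamts17* -4.61 and -3.66, all called. Other large falls were not called at 6 hpa, namely *lgals2* (-1.42, FDR 0.48), *LOC116410303* (-2.79, FDR 0.0966), *krt12.3* (-2.08, FDR 0.127) and *LOC105948087* (-2.24, FDR 0.111). Each of these was called lower at 24 hpa. *LOC100144966* was called at 6 hpa (-2.25) and not at 24 hpa (-0.97). *dio2*, inside the limit at 0 hpa, was called at both later times (-3.21 and -2.37). *dio3* had a log2 FC of -0.55 at 6 hpa and -0.00 at 24 hpa, and was called at neither. In the contractile list 28 genes were lower and 2 higher at 0 hpa, with a median of -0.98. At 6 hpa 8 of 65 were lower and 1 higher (median -0.80), and at 24 hpa 2 of 63 were lower and 3 higher (median -0.04). The keratin list had 5 higher and 4 lower at 6 hpa and 6 higher and 6 lower at 24 hpa, and *krt50* was called each time (6.72, 4.86 and 5.16). The change of these values between times was not tested, and the coefficient of variation between replicates in the fits was 13.1% at 0 hpa, 20.4% at 6 hpa and 14.2% at 24 hpa.

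**Figure D5:**
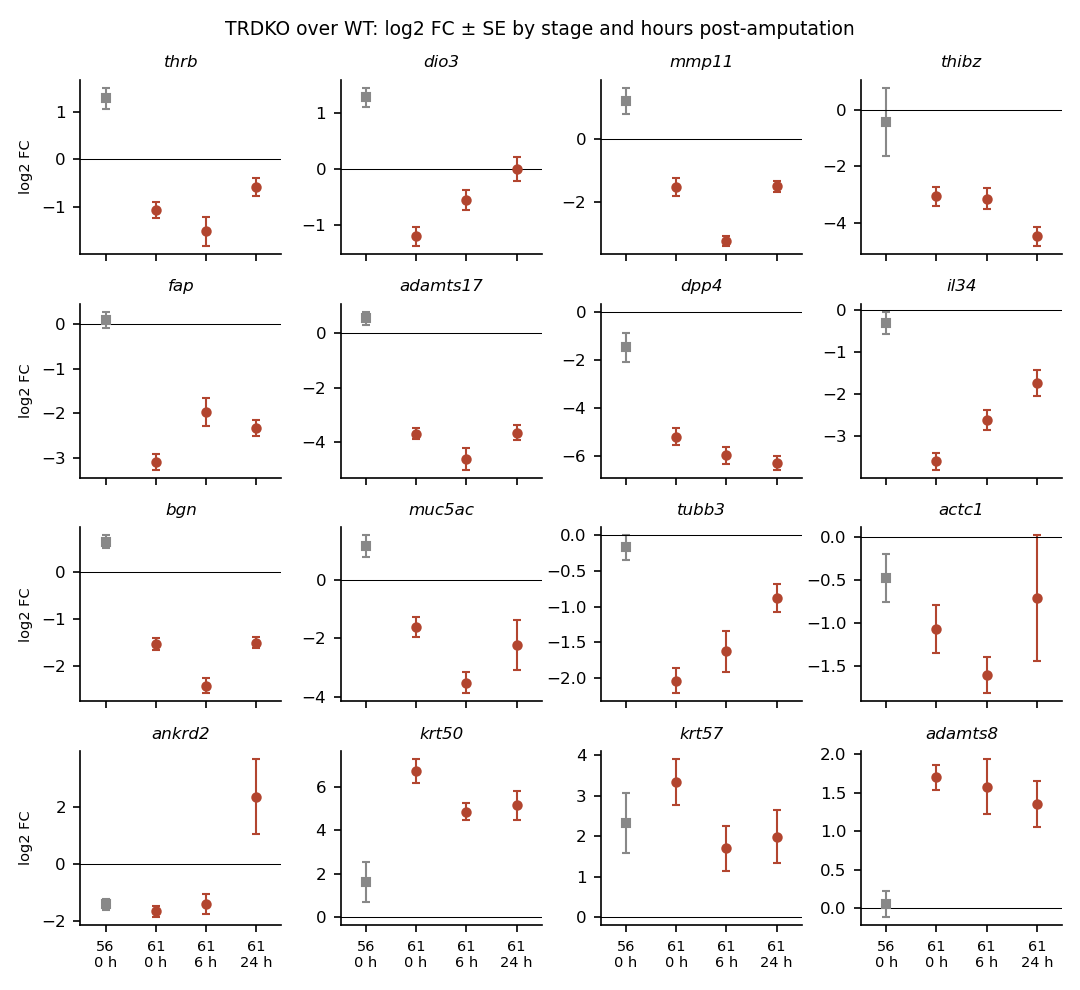
Log2 FC of TRDKO over WT (y, with SE bars) for 16 genes at stage 56 and 0 hpa (grey squares) and at stage 61 and 0, 6 and 24 hpa (red circles), 2 libraries per group at each point. *thrb*, *dio3*, *mmp11*, *bgn*, *muc5ac*, *adamts17* and *fap* (0.10, SE 0.19) lie above 0 at stage 56 and below it at stage 61 and 0 hpa. *dpp4* and *adamts17* stay far below 0 at all 3 stage 61 times.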

How the data were processed

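RNA from tail tissue was sequenced as poly-A-selected, stranded libraries. The deposited values are whole-number counts of read pairs per gene, not normalized; the authors made them with cutadapt (3.2), STAR (2.7.7a) and featureCounts of Subread (2.0.1), per the labels. The strand option and the treatment of marked duplicates are not given in the sources used here. The table held 26531 genes, and 2 broken over lines were rejoined. Of the symbols 26530 matched the RefSeq table of UCB_Xtro_10.0, where 99.3% of the single matches share the start. Coordinates are given from that assembly. No sequence was analysed.

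The 8 libraries of a time point were fitted together with edgeR (4.0.16, R 4.3.3; filterByExpr, TMM factors, robust quasi-likelihood), two-sided, with p-values adjusted by Benjamini and Hochberg over all genes. An SE is the log2 FC divided by the root of F. CPM were scaled by TMM over all 24 libraries. A group with 0 counts gives a bound against 3 counts per library, and one with at most 3 counts in each library a ratio of summed counts with an exact 95% interval, which covers counting error only. The depth of the 4 libraries and 2 replicates limit precision. The fit was also run on simulated data with the same spread for every gene, which gives no error rate for the real data.

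Genes named are *thra*, *thrb*, *klf9*, *thibz*, *mmp11*, *dio2* and *dio3*, the 12 largest rises and falls (mean of at least 10 CPM, libraries apart), the 5 genes with the smallest interaction p at that level, DEGs of the lists, other list members with their values, and markers. The members and lists were chosen with earlier results of these data known, and lists were written from general knowledge. Alternatives were RLE and upper-quartile scaling, no filter, DESeq2 (1.42.0), all 24 or only 4 libraries, a replicate block, glmTreat, no fold limit, thinned counts (seed 7) and each library left out. A crossed block was added after the data were seen.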

Additional observations from a re-analysis of the deposited data

Results flagged for a closer look

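The effect of genotype at 0 hpa differed between stage 61 and stage 56, by the test of the difference itself, in 627 genes. The 5 genes with the smallest p and at least 10 CPM in a group are given here. *anxa1.3*, an annexin gene, differed by -5.43 (SE 0.35, FDR 5.02e-05). It had 440.8 and 525.0 CPM in TRDKO61 against 620.3 and 492.7 CPM in WT61, and 62.3 and 55.5 CPM in TRDKO56 against 1.21 and 2.47 CPM in WT56, so the genotypes differed before climax and overlapped at climax. The other 4 were lower in TRDKO61 than in WT61 and had a log2 FC of 0.10 to 0.65 at stage 56, none of them called. Of these *bgn* (0.65) passed the FDR at stage 56 (0.0167) and stayed inside the fold limit. *adamts17* differed by -4.23, *fap* by -3.20, *col22a1*, a collagen of tissue junctions, by -2.64 and *bgn* by -2.17, with an FDR of at most 0.00048. *col22a1* had 22.9 and 30.6 CPM in TRDKO61 against 113.5 and 116.4 CPM in WT61, and 82.4 and 85.0 CPM in TRDKO56 against 49.7 and 67.7 CPM in WT56. All 5 kept the call under each alternative run for single genes.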

How the results depend on the processing

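The 1862 DEGs between TRDKO61 and WT61 at 0 hpa were 1501 to 2200 with 1 library left out, 1835 with a replicate block, 503 with glmTreat and 4768 with no limit on the log2 FC. With glmTreat the stage 56, interaction, 6 hpa and 24 hpa counts were 80, 46, 59 and 100, and with no fold limit 945, 884, 1581 and 2515. With 1 library left out they were 194 to 360, 162 to 1083, 414 to 723 and 409 to 937. The interaction gave 1140 genes with no filter on low counts and 329 in a fit to all 24 libraries, which gave 1675 at 6 hpa. The replicate block gave 470, 583, 1223 and 779. Deviations of same-numbered libraries correlated at -0.041 (stage 61, 0 hpa), -0.18 (stage 56), 0.11 (6 hpa) and 0.24 (24 hpa), so the numbers were not taken as pairs. Crossing the TRDKO56 numbers gave 522 DEGs at stage 56 and 700 in the interaction. All other alternatives stayed within 1.5 times. No scaling moved the median of all genes by over 0.1 or the share of higher calls by over 10 points. Of 237 named genes, 14 lost the call with DESeq2, 7 with upper-quartile scaling and 0 with RLE, 27 to 51 lost it with a given library left out, and none reversed. The cause was not tested. Genes under about 1 CPM rest on few counts, and 2 libraries per group limit every comparison.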

Other observations

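Some gene groups outside the comparisons above held single large differences. *cox6a2*, the muscle form of a cytochrome c oxidase subunit, had 6.39 and 10.3 CPM in TRDKO61 and 2 counts over both WT61 libraries, a ratio of 108.2 with a counting interval of 29.6 to 898.2, and was the 1 DEG among 77 oxidative phosphorylation genes. Its FDR was 0.0523, 0.0594 and 0.0549 without replicate 1 or 2 of TRDKO61 or replicate 2 of WT61. In the glycolysis list the median was -0.60, with 4 of 36 genes lower and 1 higher, and 9 and 8 lower without replicate 2 of TRDKO61 or replicate 1 of WT61. Besides *pck1*, the fallers were *pfkfb4*, a regulator of glycolysis, with 215.5 and 191.7 CPM in TRDKO61 against 564.8 and 466.1 CPM in WT61 (log2 FC -1.34, FDR 6.87e-05), *aldoc* (-1.33) and the glucose transporter *slc2a2* (-2.28). The fatty acid enzymes *scd* (-1.69) and *elovl6* (-1.53) were lower, among 3 of 39 lipid genes (5 without replicate 1 of TRDKO61).

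Of 43 chaperone genes 4 were higher and 1 lower. *cryab*, a small heat shock protein, had 32 and 48.5 CPM in TRDKO61 against 8.8 and 13.7 CPM in WT61 (log2 FC 1.80, FDR 0.000617), and *hsp90aa1.1* rose by a log2 FC of 1.28. Of 37 antigen presentation and interferon genes 5 were lower, all of the interferon group, and 1 was higher (*psmb8*, a proteasome subunit, 1.07; FDR 0.152 and 0.264 without replicate 2 of TRDKO61 or of WT61, 0.0898 with only the 4 libraries and 0.209 with all 24). The fall was led by *ddx58*, an RNA sensor, with 14.2 and 15.6 CPM in TRDKO61 against 60.2 and 47.5 CPM in WT61 (log2 FC -1.86, FDR 0.000447). Without replicate 2 of TRDKO61 3 of the list were called lower, and without replicate 1 of WT61 2 were.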
